A study of Homo sapiens with 6 samples.

Results

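The APOBEC3 genes encode cytidine deaminases, enzymes that turn cytosine into uracil in single-stranded DNA. Humans have 7 of them, APOBEC3A, APOBEC3B, APOBEC3C, APOBEC3D, APOBEC3F, APOBEC3G and APOBEC3H, side by side on chromosome 22. The members were found by symbol, and all 7 matched a row among the 60617 Ensembl genes of the deposited count table. The RNA was that of A549, an epithelial line from a human lung cancer, kept in RPMI medium with serum. The study set 3 libraries of wild-type A549 cells against 3 libraries of A549 cells with a knockout of YTHDF1, a reader protein that binds N6-methyladenosine in RNA. No other treatment is named for either group. The labels call the libraries biological replicates without saying whether they came from separate clones or cultures, nor which part of YTHDF1 was edited. The p-values therefore measure the spread among these libraries only.

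APOBEC3 proteins restrict retroviruses, hepatitis B virus and LINE-1 elements, in part by editing DNA during reverse transcription. APOBEC3G and APOBEC3F are the classical targets of the HIV protein Vif, which sends them to the proteasome. APOBEC3A and APOBEC3B are sources of cytosine mutations in tumour genomes. Several members are known to be induced by interferon, mainly in leukocytes, while APOBEC3B is known as the member expressed in many epithelial cancers. The series title links YTHDF1 to innate immunity. Whether RNA of this family tracks innate immune activity in these cells was not tested.

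The genes arose by duplication and their sequences are still close, which bears on how reads can be shared out among them. On GRCh38 in GENCODE release 29 they occupy 151 kb of chromosome 22, from 38952741 to 39104067, all on the plus strand. APOBEC3A, APOBEC3C and APOBEC3H encode 1 zinc-binding deaminase motif, and APOBEC3B, APOBEC3D, APOBEC3F and APOBEC3G encode 2. The coding sequence around the cysteines of the last motif is shown for the 5 closest members as 60 bases, 5′ to 3′ on the plus strand, from GENCODE 29 transcripts. The positions are chr22:38961489-38961548 in APOBEC3A, chr22:38991434-38991493 in APOBEC3B, chr22:39017856-39017915 in APOBEC3C, chr22:39031784-39031843 in APOBEC3D and chr22:39052164-39052223 in APOBEC3F, and each lies within an exon. Capitals mark the base at which APOBEC3C and APOBEC3F differ.
APOBEC3A: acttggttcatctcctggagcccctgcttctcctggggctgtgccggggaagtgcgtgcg
APOBEC3B: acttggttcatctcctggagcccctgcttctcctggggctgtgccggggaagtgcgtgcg
APOBEC3C: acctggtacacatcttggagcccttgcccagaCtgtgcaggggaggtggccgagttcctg
APOBEC3D: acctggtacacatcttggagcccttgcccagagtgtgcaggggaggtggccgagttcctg
APOBEC3F: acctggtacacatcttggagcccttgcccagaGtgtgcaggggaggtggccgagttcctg
APOBEC3A and APOBEC3B were identical over this stretch, and so were APOBEC3D and APOBEC3F. APOBEC3C differed from APOBEC3F at 1 base of 60. Position by position and without gaps, APOBEC3B differed from APOBEC3F at 28. The cysteines of the motif lie farther apart in APOBEC3A and APOBEC3B, so later bases are out of register. The count of 28 is therefore not a measure of divergence. In APOBEC3G and APOBEC3H the cysteines are spaced as in APOBEC3F. From APOBEC3F, APOBEC3G differed at 21 bases and APOBEC3H at 20, and APOBEC3G differed from APOBEC3H at 17.

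Over whole transcripts the members were less alike. Of the 100-base stretches in the main transcript of APOBEC3B, 36.5% also occur in a transcript of another member, mostly APOBEC3A (27.3%). The shares were 13.0% for APOBEC3A, 13.5% for APOBEC3F, 11.3% for APOBEC3G and 9.18% for APOBEC3D, and none was shared for APOBEC3C or APOBEC3H. With stretches of 50 bases the shares were 50.5% for APOBEC3B, 24.0% for APOBEC3F, 1.16% for APOBEC3C and 0 for APOBEC3H. Read length and the rule for multi-mapping reads are unknown here, which leaves the level of APOBEC3B in particular uncertain. Of the 3 members high enough to test, APOBEC3C shares the least.

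YTHDF1 itself was at 98.0, 104 and 96.4 CPM (counts scaled by library size with TMM factors) in wild type and at 48.6, 48.6 and 47.1 CPM in the knockout. Its RNA fell by 1.05 on the log2 scale (adjusted p 7.84e-18 in edgeR) without being lost, and the protein was not measured. Totals ran from 27238817 to 40675628 counts per library, so that 3 counts equal between 0.0735 and 0.111 CPM. The share of counts on mitochondrially encoded mRNAs was 5.76% to 5.92% in wild type and 3.72% to 3.98% in the knockout. This share is not a direct measure of RNA quality. It moved with every group difference given here, and its part in them was not tested. Epithelial and A549-associated genes were present, with ALDH1A1 at 6070 ± 140 (SD, n = 3) CPM in wild type, whereas EPCAM was at 2.10 ± 0.419 CPM. Of 11 such genes 6 rose and 3 fell, with CDH1, the epithelial cadherin gene, up by 1.76 on the log2 scale from 10.0 ± 1.69 CPM (SD, n = 3) and AKR1B10, a reductase gene, which fell by 1.06. Among all genes tested in edgeR, 27.2% rose and 26.3% fell. CDKN2A and CDKN2B, which lie in a region known to be deleted in A549, had 0 counts in all 6 libraries.

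APOBEC3F and APOBEC3C rose in the knockout, APOBEC3B did not pass the test, and the other 4 members were too low for a test. APOBEC3F, a 2-domain restriction factor, rose 4.24-fold. APOBEC3C, a 1-domain enzyme with weak activity against retroviruses, rose 1.41-fold. APOBEC3B had a fold change of 1.05. Genes were tested with edgeR's quasi-likelihood test on 18505 genes that passed a filter on low counts, with Benjamini-Hochberg adjustment over all of them. Among all genes tested, 53.5% changed in either direction, 27.2% being higher and 26.3% lower in the knockout. Against this background 2 of 3 members higher is a count on very few genes, and no share can be read from it. In bulk RNA, a change in the number of cells that express a gene and a change in RNA per cell cannot be told apart.

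**Figure D1:**
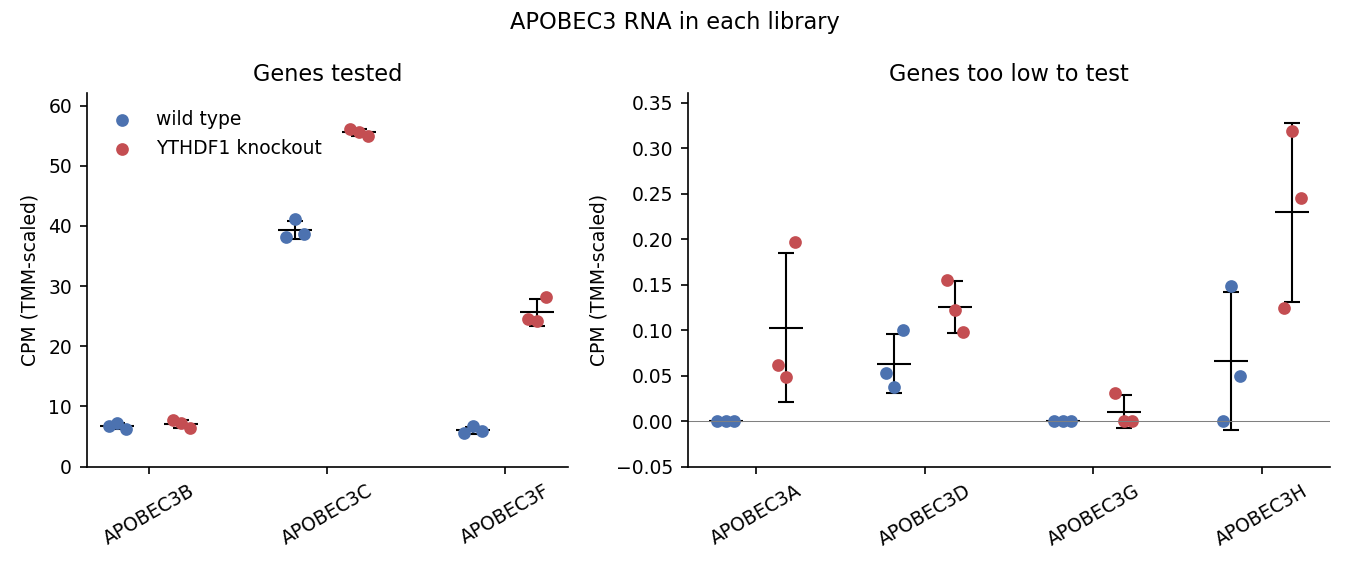
RNA level (CPM, vertical axis) of each APOBEC3 gene in the 3 wild-type (blue) and 3 YTHDF1 knockout (red) libraries, with the mean and SD in black and a separate, finer scale in the right panel. APOBEC3C and APOBEC3F are separate between the groups, APOBEC3B overlaps, and the 4 genes on the right stay at or below 0.319 CPM.

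APOBEC3F stood at 5.57, 6.72 and 5.94 CPM in wild type and at 24.6, 24.2 and 28.1 CPM in the knockout. Every knockout library was above every wild-type library, as was the case for APOBEC3C and, among members too low to test, for APOBEC3A. Of all genes tested, 58.9% had groups that did not overlap, and 29.8% had them with the knockout higher. The log2 fold change was 2.09 (SE 0.10), with a 95% interval of the fold from 3.67 to 4.91 and an adjusted p of 4.36e-18 in edgeR. Of all genes tested, 2.69% had a larger log2 fold change. The gene (ENSG00000128394) spans 39040604 to 39053910, and no other annotated gene overlaps its exons.

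APOBEC3C was at 38.2, 41.1 and 38.7 CPM in wild type and at 56.1, 55.6 and 55.0 CPM in the knockout. It was the most abundant member in every library, and the groups did not overlap. The log2 fold change was 0.50 (SE 0.06), with a 95% interval of the fold from 1.30 to 1.54 and an adjusted p of 1.03e-08 in edgeR. A larger log2 fold change was seen for 20.3% of genes tested, so the size of this rise was common among these cells' genes. APOBEC3C (ENSG00000244509) spans 39014083 to 39020352, and 0.603% of its exonic bases overlap another gene.

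APOBEC3B, a nuclear 2-domain deaminase, was at 6.83, 7.27 and 6.19 CPM in wild type and at 7.71, 7.25 and 6.39 CPM in the knockout. The libraries of the groups overlapped. The log2 fold change of 0.07 (SE 0.13) had an adjusted p of 0.674 in edgeR, and the 95% interval of the fold ran from 0.871 to 1.27. A rise or fall within that interval is not shown to be absent, while a rise of the size seen for APOBEC3F lies outside it. APOBEC3B (ENSG00000179750) spans 38982347 to 38992804, 18.4% of its exonic bases overlap the annotated exons of APOBEC3A, and 12.9% overlap APOBEC3B-AS1 on the other strand, a row with 0 counts in all libraries.

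The unequal response of the members can be set out as ratios within each library, which do not depend on scaling. There were 0.815, 0.923 and 0.960 counts of APOBEC3F per count of APOBEC3B in wild type and 3.18, 3.33 and 4.40 in the knockout. The ratio of APOBEC3F to APOBEC3C was 0.146, 0.163 and 0.154 in wild type and 0.438, 0.435 and 0.512 in the knockout. The ratio of APOBEC3C to APOBEC3B was 5.59, 5.65 and 6.25 in wild type and 7.28, 7.67 and 8.60 in the knockout. In all 3 ratios the groups did not overlap, and each gave p = 0.1 in a two-sided exact permutation test over libraries (0.1 adjusted over the 3 ratios), which is the smallest p that 3 against 3 allows.

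APOBEC3G, which blocks HIV lacking Vif and is mainly a lymphoid gene, had 0 counts in each wild-type library and 1, 0 and 0 counts in the knockout libraries. A count of 0 over the wild-type group has an exact 95% Poisson upper limit of 0.0352 CPM. The knockout group's 1 count corresponds to 0.00879 CPM with an exact 95% Poisson interval from 0.000222 to 0.0490. No change was detectable at this depth. Its exons overlap no other annotated gene, and 11.3% of its transcript's 100-base stretches occur in another member.

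APOBEC3A, a myeloid deaminase with strong mutator activity, had 0 counts in each wild-type library and 2, 2 and 8 counts in the knockout libraries. Taking 3 counts summed over the wild-type group as its floor, the pooled knockout level was 3.69-fold above that floor. This ratio leaves out counting error in the knockout. The exact 95% Poisson interval was 0.0545 to 0.184 CPM in the knockout, and its upper limit in wild type was 0.0352 CPM. Most of the 12 counts came from knockout replicate 3, without which the ratio was 1.91-fold on 4 counts. Without the filter on low counts edgeR gave an adjusted p of 0.0842. The annotated span of APOBEC3A (ENSG00000128383), 38952741 to 38992778, runs into APOBEC3B, and 14.8% of its exonic bases lie in exons of that gene.

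APOBEC3H, a 1-domain member, had 0, 4 and 2 counts in wild type and 4, 13 and 10 in the knockout. In CPM the groups overlapped, since the second wild-type library was at 0.148 and the first knockout library at 0.124. The pooled level was 0.0572 CPM (exact 95% Poisson interval 0.0210 to 0.124) in wild type and 0.237 CPM (0.156 to 0.345) in the knockout. Without the filter edgeR gave an adjusted p of 0.193. The gene passed the filter when 1 of 3 libraries was left out, with an adjusted p of 0.260 without wild-type replicate 1, 0.0277 without wild-type replicate 2 and 0.0593 without knockout replicate 1, so that it was called in 1 of these 3 fits.

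APOBEC3D, a 2-domain member, had 2, 1 and 4 counts in wild type and 5, 5 and 4 in the knockout, which correspond to 0.0667 CPM (exact 95% Poisson interval 0.0268 to 0.137) and 0.123 CPM (0.0673 to 0.206). Without the filter edgeR gave an adjusted p of 0.641. In GENCODE 29, 83.2% of its exonic bases also belong to a joint gene model, ENSG00000284554, that runs from within APOBEC3C to the end of APOBEC3D on the same strand. That row had 0 counts in all libraries. The rule for reads in shared exons is unknown here, and these counts cannot be read as the level of APOBEC3D.

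For these 4 genes the pooled levels are counts over the group's total counts, and the intervals cover counting error only. In every library more rows of the table held a count of 2 (2206 to 2381 rows) than a count of 1 (1270 to 1544 rows), so a count of 2 need not stand for 2 separate fragments.

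Levels can be compared between genes per length. Per kb of annotated exon, APOBEC3C stood at 14.0 ± 0.554 CPM per kb (SD, n = 3), APOBEC3B at 3.57 ± 0.286 and APOBEC3F at 1.87 ± 0.181 in wild type. In the knockout, APOBEC3C stood at 19.7 ± 0.204, APOBEC3F at 7.90 ± 0.674 and APOBEC3B at 3.75 ± 0.354. None of these neighbours in order overlapped within a group, and APOBEC3F and APOBEC3B changed places between the groups. The order of the lower pair in wild type rests on the length used. Per kb of coding sequence, APOBEC3B was at 5.90 ± 0.473 and APOBEC3F at 5.43 ± 0.524 CPM per kb, and their libraries overlapped. In the knockout APOBEC3F was above APOBEC3B by either length. The other 4 members were at or below 0.255 CPM per kb of exon in every library, and their order within that range is not separated by the counts.

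The summed APOBEC3 level was 18.9, 20.6 and 18.9 CPM per kb of exon in wild type and 31.7, 31.3 and 31.9 in the knockout. The groups did not overlap, with a ratio of 1.62 between their means. A two-sided exact permutation test gave p = 0.1, the smallest that 3 against 3 allows. APOBEC3C made up 71.7% ± 0.944 of the sum in wild type and 62.3% ± 0.959 in the knockout. APOBEC3F went from 9.61% ± 0.484 to 25.0% ± 1.97, and APOBEC3B from 18.3% ± 0.929 to 11.9% ± 1.16 (SD, n = 3 libraries per group). APOBEC3C thus remained the main member by this measure, although its share was lower in each knockout library.

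**Figure D2:**
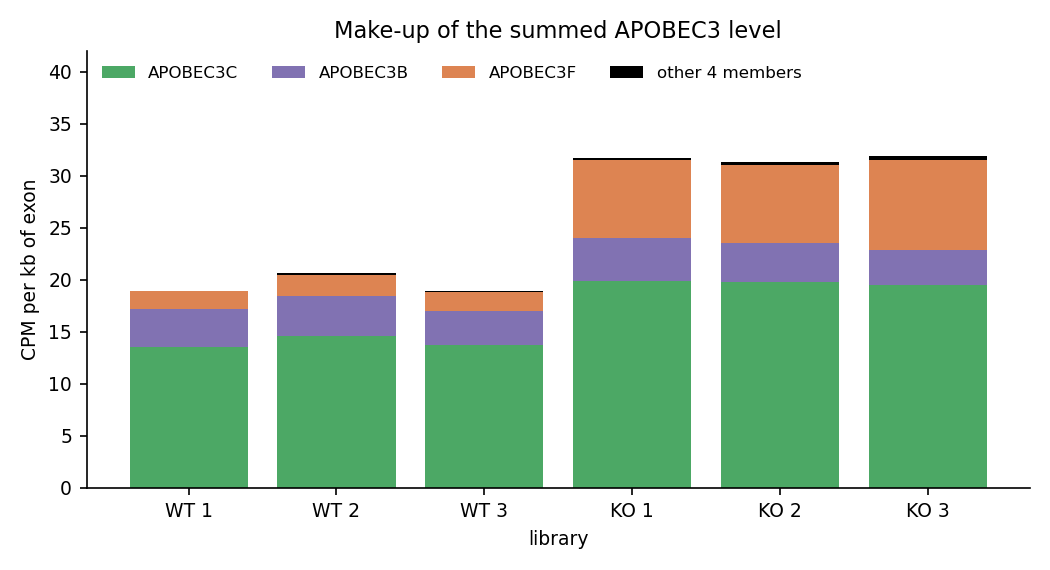
Summed APOBEC3 level in each library (horizontal axis), in CPM per kb of annotated exon, split by member; 1 bar per library, WT wild type and KO knockout. The sum lies between 18.9 and 20.6 in wild type and between 31.3 and 31.9 in the knockout, and the APOBEC3F segment is larger in each knockout library.

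The genes around the cluster were read beside the rise of APOBEC3C and APOBEC3F. Of 12 neighbours, from JOSD1 at 259 kb before the start of APOBEC3A to MGAT3 at 522 kb after it, 5 rose, 3 fell and 4 did not pass the test. For comparison, 27.2% of all genes tested rose and 26.3% fell. The listed genes nearest to the cluster were among those that did not pass. CBX6, a Polycomb protein gene on the left, was at 110 ± 1.54 CPM in wild type and 102 ± 2.92 CPM in the knockout. Its log2 fold change was -0.10 (SE 0.05, adjusted p 0.0667 in edgeR). CBX7, its paralog on the right, was at 3.41 ± 0.374 and 4.46 ± 0.139 CPM. Its log2 fold change was 0.39 (SE 0.17, adjusted p 0.0583 in edgeR), beside 0.50 for APOBEC3C. For both genes the groups did not overlap, as for 58.9% of all genes tested. Neither CBX6 nor CBX7 is shown to be unchanged. Farther out, GTPBP1, a GTP-binding protein gene, rose by 1.78 on the log2 scale from 28.3 ± 1.52 to 97.3 ± 3.72 CPM, and PDGFB, a growth factor gene, rose by 1.63 from 3.82 ± 1.22 to 11.7 ± 1.90 CPM. DNAL4, a dynein light chain gene, rose by 0.56. RPL3, a ribosomal protein gene with many pseudogenes, fell by 1.06, TAB1 fell by 0.23 and NPTXR fell by 0.19. The median log2 fold change of the 12 neighbours was 0.11, against 0.00 for all genes tested. Within the cluster the midpoints of APOBEC3B and APOBEC3F lie 34.8 and 94.5 kb from the start of APOBEC3A, and their log2 fold changes were 0.07 and 2.09.

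**Figure D3:**
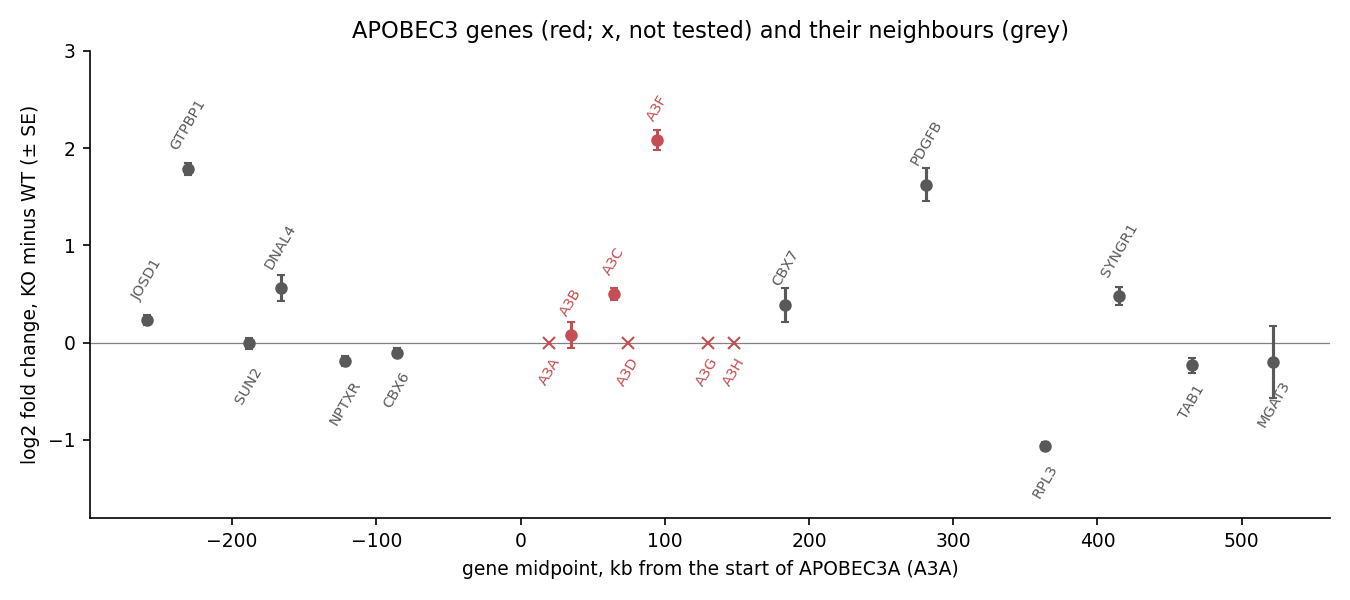
Log2 fold change, knockout minus wild type with its SE, of the APOBEC3 genes (red) and their neighbours (grey) against the distance of each gene's midpoint from the start of APOBEC3A in kb; crosses at 0 mark members not tested and carry no value, and labels shorten APOBEC3 to A3. APOBEC3F at 2.09 and APOBEC3C at 0.50 stand between CBX6 at -0.10 and CBX7 at 0.39, which did not pass the test.

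Other nucleic acid deaminases and their cofactors were tested for 8 of 12 listed genes, of which 3 rose and 0 fell. Over all genes tested, 27.2% rose and 26.3% fell, and 8 genes are too few to read a share. The rises were those of the RNA-editing enzymes that turn adenosine into inosine and of a cofactor. ADAR, which has an interferon-inducible form, rose by 1.50 from 361 ± 4.43 to 1019 ± 16.3 CPM. ADARB1 rose by 1.41 from 5.69 ± 0.476 to 15.2 ± 1.06 CPM, and RBM47, a cofactor of the APOBEC1 editing complex, rose by 0.76 from 66.5 ± 3.35 to 112 ± 0.578 CPM. APOBEC1, the founding member of the wider family, had 0 counts in all libraries, as did ADARB2.

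Genes that handle uracil in DNA, the product of these enzymes, went both ways. Of 17 genes, 5 rose, 7 fell and 5 did not pass, with a median log2 fold change of -0.16. Beside this, 27.2% of all genes tested rose and 26.3% fell. UNG, the main uracil glycosylase, fell by 0.67 from 64.8 ± 4.21 to 40.7 ± 4.45 CPM. DUT, which keeps dUTP out of DNA and has 14.5% of its exonic bases opposite another gene, fell by 0.55 from 53.9 ± 4.95 to 36.7 ± 0.990 CPM, and APEX1, the abasic-site endonuclease, fell by 0.55 from 211 ± 5.91 to 144 ± 2.45 CPM. REV3L, the catalytic subunit of the bypass polymerase zeta, rose by 0.91 from 28.3 ± 3.02 to 53.0 ± 3.87 CPM. APOBEC3F rose in the same libraries in which UNG fell, and a link between them was not tested.

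Of 27 genes reported to act on APOBEC3 transcription, through interferon, NF-kB, p53 or E2F, 14 rose, 6 fell and 7 did not pass. The shares over all genes tested were 27.2% higher and 26.3% lower. Genes of interferon-responsive transcription factors were among those that rose. STAT2 rose by 3.55 from 52.0 ± 1.01 to 611 ± 16.3 CPM, and IRF1, part of whose exons lie opposite another gene, rose by 2.83 from 14.9 ± 1.69 to 106 ± 1.12 CPM. IRF9, a DNA-binding partner of STAT2, rose by 1.94 from 0.131 to 0.497 CPM, but 48.4% of its exonic bases are shared with a same-strand gene, which makes its level uncertain. The median log2 fold change of this list was 0.27.

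Proteins that bind APOBEC3 proteins or take part in their Vif-dependent degradation were tested for all 18 listed genes, of which 4 rose, 9 fell and 5 did not pass. Again, 27.2% of all genes tested rose and 26.3% fell. MOV10, an RNA helicase found with APOBEC3G in RNA granules, rose by 1.70 from 49.8 ± 2.92 to 161 ± 7.28 CPM, and MDM2, a ubiquitin ligase, rose by 1.29 from 123 ± 5.06 to 300.4 ± 23.6 CPM. PABPC1, the poly(A)-binding protein gene, fell by 0.91 from 1789 ± 35.0 to 953 ± 21.9 CPM, and YBX1, an RNA-binding protein gene, fell by 0.90 from 472 ± 14.7 to 253 ± 8.04 CPM.

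**Figure D4:**
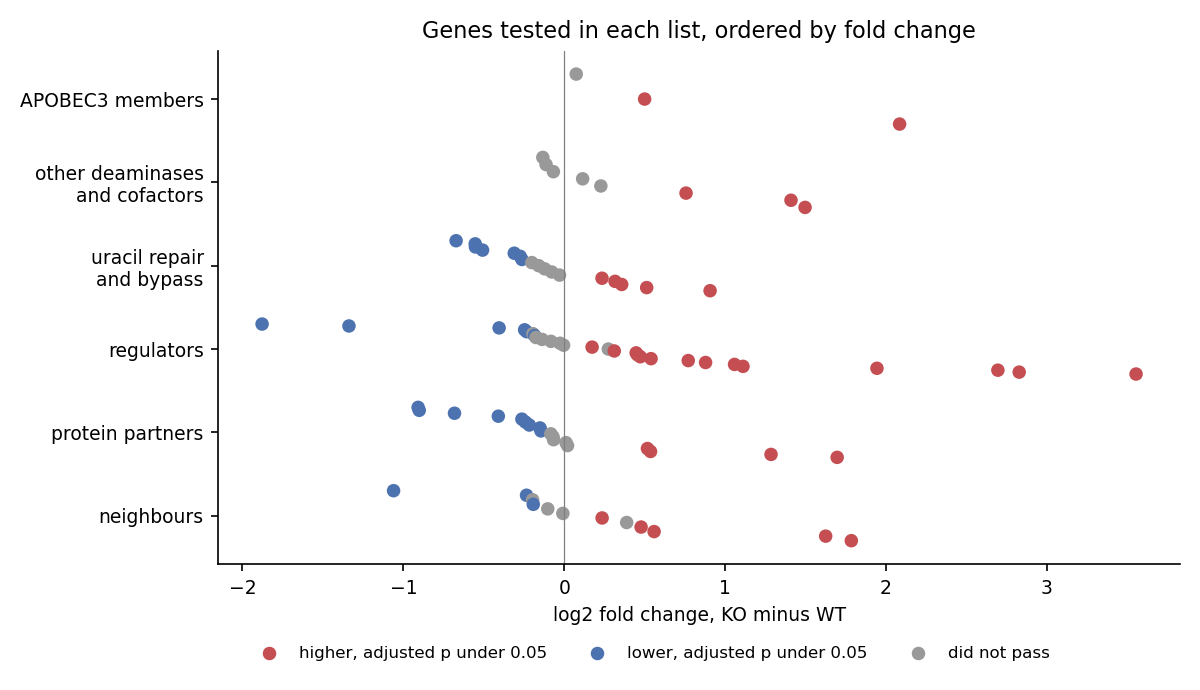
Log2 fold change, knockout minus wild type, of each tested gene in 6 lists; every point is a gene, stacked by fold change within its list, and colour shows the side of the 0.05 threshold on the adjusted p. APOBEC3F at 2.09 lies below STAT2 at 3.55 and IRF1 at 2.83.

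The members at or near 0 here are known mainly from leukocytes, so leukocyte markers were read in the same libraries. Of 24 markers, 7 had 0 counts in all libraries, namely CD2, CD3D, CD3E, CD3G, MS4A1, FCGR3A and CD48. The summed level of the 24 did not fall below 17.9 CPM in wild type and ran from 10.3 to 11.2 CPM in the knockout. Of 7 markers tested, 4 fell and 1 rose, against 26.3% lower and 27.2% higher among all genes tested. CD14 fell by 1.69 from 11.1 ± 0.243 to 3.45 ± 0.537 CPM and held most of the wild-type sum, CSF1R fell by 2.71, CORO1A fell by 2.25 and CD4 fell by 1.14, the last 3 from below 1 CPM. ITGAM rose by 0.54 from 3.24 ± 0.555 to 4.70 ± 0.424 CPM. APOBEC3C and APOBEC3F rose while the marker sum was lower. As that sum was mostly CD14 in wild type, it does not measure leukocyte content, which was not tested.

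Genes with the most similar profiles were sought among 11127 named genes averaging 5 CPM or more, by the Euclidean distance between log2 CPM profiles centred on the wild-type mean over the 6 libraries. Closest to APOBEC3F were BTC (distance 0.164), TLE4 (0.186) and PLA2G4C (0.187), with log2 fold changes of 2.09, 2.12 and 2.10. Closest to APOBEC3C were GSKIP (0.0396), FANCL (0.0449) and STAT6 (0.0710), with log2 fold changes of 0.52, 0.52 and 0.53. Over 2 groups such a distance mostly measures the size of the group difference, and it says nothing of shared control.

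As YTHDF1 binds methylated adenosines, the letters GGACT, a frequent core of such sites, were counted in the sense strand of the main transcripts. There were 6 in the 2818 bases of APOBEC3C, 4 in the 2694 bases of APOBEC3F and 3 in the 1533 bases of APOBEC3B. The densities were 2.13, 1.48 and 1.96 per kb, against a median of 0.941 per kb over 13893 protein-coding genes tested, 92.0% of which hold at least 1. By density the order was APOBEC3C, APOBEC3B, APOBEC3F, and by log2 fold change it was APOBEC3F, APOBEC3C, APOBEC3B, a description of 3 genes only. A match to these letters does not show methylation or binding.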

How the data were processed

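RNA-seq libraries from 3 wild-type and 3 YTHDF1 knockout A549 samples were made with a stranded Illumina kit, per the labels' protocols, and samples were grouped by title. The authors deposited raw counts, 1 whole number per gene and library, for 60617 genes. The build is GRCh38, and edgeR 3.32.1, featureCounts 2.0.1, STAR 2.7.0d and Trim Galore 0.6.6 are listed, without their order, per the submitters' processing notes. The sources used here do not give the annotation, strand setting, overlap rule or multi-mapping rule. Symbols came from a symbol table (42000 genes) and GENCODE 29 (849 more), which also gave loci, lengths and transcripts.

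Counts were filtered with filterByExpr, scaled with TMM and tested by edgeR 4.0.16's quasi-likelihood test in R 4.3.3 with genotype as the only term, two-sided, Benjamini-Hochberg adjustment and a threshold of 0.05. Standard errors came from the F statistic. Single values were tested by exact permutation (scipy 1.17.1). Simulated counts for knockout against wild type on 17753 genes gave back 79.1%, 95.5% and 100% of genes changed by 1.5-, 2- and 4-fold, with 12 false among 195 calls; far fewer genes changed there than here, so these rates need not hold. Libraries of a group differed by more than sampling noise (chi-square per degree of freedom 4.40 to 6.55). The members, lists, tests and alternatives were chosen with earlier results of these data known. All members were named, and from each other list up to 4 genes past the threshold with the largest absolute log2 fold change, plus any minority of at most 3 genes moving the other way; EPCAM, CBX6, CBX7, JOSD1, MGAT3 and the markers or deaminases at 0 were named beyond that rule, and a few listed genes are counted but not reported here by name. Alternatives were DESeq2 1.42.0, limma-voom (limma 3.58.1), RLE factors, library size only, other filters, a replicate block, a threshold of 0.01 and leaving out each library.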

Additional observations from a re-analysis of the deposited data

How the results depend on the processing

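The calls of APOBEC3B, APOBEC3C and APOBEC3F kept their direction and side of the threshold under all 14 alternatives. The log2 fold change ran from 2.01 to 2.15 for APOBEC3F, from 0.48 to 0.53 for APOBEC3C and from 0.01 to 0.15 for APOBEC3B, whose adjusted p ran from 0.432 to 0.948. The number of members called was 2 to 3, the third being APOBEC3H without wild-type replicate 2 (log2 fold change 3.03, adjusted p 0.0277 in edgeR). Genes called numbered 8211 to 10021 against 9893. With the replicate block, 9703 genes and 2 members were called. Same-numbered libraries did not deviate together (r from -0.026 to 0.008 over genes). Such correlations cannot tell whether same-numbered samples were handled together. The ratio of summed levels ran from 1.58 to 1.67. Shares depend on the length used. In place of exons, the coding sequence, chosen after seeing the data, moved the change of the APOBEC3B share from -6.45 to -2.45 percentage points and that of APOBEC3F from 15.3 to 11.2, and the whole transcript, also chosen after, gave -7.72 for APOBEC3B. Lengths from RefSeq proteins were not run. Depth limits APOBEC3A, APOBEC3D, APOBEC3G and APOBEC3H, at 13 counts or fewer in every library.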
